A study of Mus musculus with 6 samples.

Results

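The genes described here were 30 genes of DNA repair and of the DNA damage checkpoint, chosen by name with earlier results of these data known. All 30 were found by gene name among the 54532 genes of the deposited table. By role, 11 act in homologous recombination, 7 in the Fanconi anaemia pathway, 8 in checkpoint signalling, and 4 in base repair, mismatch repair or as replicative polymerases. Their messenger RNA was measured by RNA sequencing in lung fibroblasts of the mouse, given as primary cells in the sample labels. The 6 libraries formed 2 groups of 3. The labels name the control group NC without spelling it out, and they name the other group calumenin KD. In the description field the KD libraries are called KO and the NC libraries WT, and the design text allows for either a knockout or a knockdown. No source used here gives how calumenin was lowered, the strain or the age. Calu encodes calumenin, which binds calcium in the lumen of the secretory pathway, and the stated question was how its loss affects senescence and fibrosis signalling.

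Homologous recombination repairs double-strand DNA breaks by copying an intact sister strand, with BRCA1, BARD1, PALB2 and BRCA2 among the proteins that act early at the break. The Fanconi anaemia pathway unlocks crosslinks between DNA strands: a core complex that includes FANCA, FANCB, FANCC and FANCG attaches ubiquitin to the FANCD2 and FANCI pair. The ATM and ATR kinases sense breaks and stalled replication forks, mark chromatin through the histone variant H2AX and halt the cell cycle through the kinases CHEK1 and CHEK2. Many of these genes are transcribed mainly in dividing cells, and persistent damage signalling is a known feature of senescent fibroblasts.

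Calu had 219.9 to 226.6 FPKM (fragments per kilobase of gene, scaled to library depth) in the NC libraries and 12.6 to 14.6 FPKM in the KD libraries. Depth, recovered from the FPKM values, was 15907164 to 18312888 reads per library, and each of the 30 genes had between 204 and 3218 reads in every library. Of 12 fibroblast markers 7 were at 1 FPKM or more in some library, including Vim, Col1a1, Col1a2, Col3a1, Pdgfra and Pdgfrb, but Dcn, Lum, Thy1, Tcf21 and Fbln1 stayed below 1 FPKM in all 6. All 11 epithelial and all 8 endothelial markers were below 1 FPKM. Of 11 macrophage and leukocyte markers 8 were, among them Ptprc and Csf1r, and the list summed to 9.50 to 10.3 FPKM in NC and 5.64 to 8.70 FPKM in KD. The 7 smooth muscle and pericyte markers summed to 54.7 to 58.8 FPKM in NC and 45.8 to 60.7 FPKM in KD, most of it Cspg4. The 4 mesothelial markers summed to 13.7 to 14.8 FPKM in NC and 10.4 to 14.3 FPKM in KD, nearly all of it Msln. Library KD1 stood apart from KD2 and KD3. Across tested genes its median absolute log2 difference was 0.176 from KD2 and 0.220 from KD3, against 0.0889 between KD2 and KD3 and 0.0716 to 0.0808 between NC libraries. Results are therefore given with and without KD1. No label states that the replicates were separate cultures or mice. The p-values therefore reflect the spread among these 6 samples only, and that spread may be technical. In bulk RNA, fewer cells that express a gene and less RNA per cell cannot be told apart.

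Of the 30 genes, 7 were higher in the KD libraries and 2 were lower, by limma at an adjusted p under 0.05. The 7 were the histone gene H2afx, its binding partner gene Mdc1, the mismatch repair gene Msh6, the glycosylase gene Neil3, the Fanconi core complex genes Fanca and Fancg, and the recombination gene Rad54b. The 2 that fell were the checkpoint kinase gene Atm and the recombination gene Rad51ap1. That was 23.3% of the genes higher and 6.67% lower, against a background of 10.9% higher and 13.6% lower among the 12299 genes tested. A gene was tested when its mean over the 6 libraries was at least 1 FPKM. All 30 passed, and each also had a mean of at least 1 FPKM within NC and within KD.

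Log2 differences ran from -0.35 to 0.69 with a median of 0.13, against a median of 0.01 over all tested genes, and 22 of 30 were positive. Without KD1 the median was 0.08 and 20 were positive. Values of all KD libraries lay above all NC libraries for 11 genes (background 21.3%) and below them for 2 (background 22.9%). Without KD1, 10 genes were higher and 5 lower, or 33.3% and 16.7%, against a background of 20.9% higher and 21.5% lower. The share of rises was above the background and the share of falls below it, with and without that library. The falls were only 2 and 5 genes, and their gap to the background was not tested. H2afx, Mdc1, Msh6, Neil3 and Fanca passed under all 21 alternative settings. The other 4 calls did not, as given for each gene.

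In each of the other settings too, the share of rises was above its background and the share of falls, always few genes, below it. These settings refit the same libraries and largely recount the same genes, so their agreement is not independent support. Without NC1, NC2, NC3, KD2 and KD3, in that order, 5, 5, 6, 5 and 7 of the 30 genes were higher, against backgrounds of 5.08%, 4.8%, 5.29%, 4.82% and 8.18%. In those fits 0, 0, 1, 0 and 1 were lower by limma, against 7.59%, 7.5%, 7.98%, 7.99% and 11.8%. With chromosome medians removed 6 were higher and 1 lower (background 9.65% and 11%), and with no filter on low genes 5 and 1 (3.51% and 5.37%). Equal totals gave 8 and 1 (12.6% and 11.9%), array weights 6 and 2 (11.8% and 14%), voom on reads 9 and 2 (12.2% and 15.1%) and protein-coding genes alone 9 and 2 (13.6% and 16.9%). The filter at 5 FPKM gave 7 and 2 of 26 genes (12.6% and 16.9%), and the replicate block 7 and 2 of 30 (8.54% and 11.2%). Quantile scaling and the fit with no intensity trend each gave 8 and 2 (11.9% and 12.6%, and 10.7% and 13.2%). Pseudocounts of 0.1 and 5 left the counts at 7 and 2 (11% and 13.5%, and 10.8% and 13.7%), and so did median-of-ratios scaling and robust moderation (10.9% and 13.6%).

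**Figure D1:**
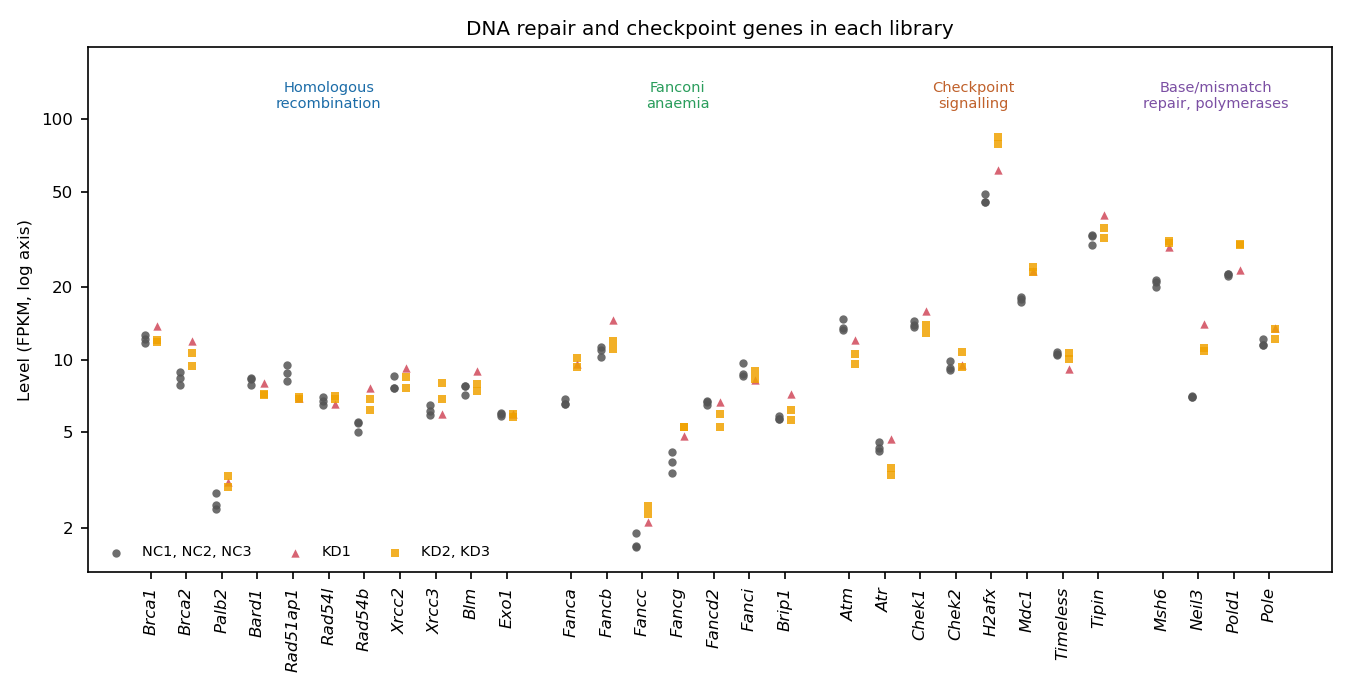
Level of each of the 30 genes (FPKM, log axis) in the 6 libraries, ordered by role, with NC libraries as circles, KD1 as a triangle and KD2 and KD3 as squares. H2afx was highest in every library, and the KD symbols lie above all NC symbols for Fanca, Mdc1, Msh6, Neil3 and H2afx.

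Promoter sequences are shown as a description, since E2F factors and CCAAT-binding factors are known regulators of genes of dividing cells. Any part of these factors in the differences was not tested. RefSeq promoters (GRCm38.p6, the same assembly as mm10) were matched for 23 of the 30 genes, and the 250 bases before the start were searched on both strands. For Fancc and Timeless the RefSeq start lay well inside the deposited gene span, and the shares count these starts as promoters. An E2F-type heptamer (the letters TTTCCCG, the variant TTTCGCG, the variant TTTGGCG or the variant TTTGCCG) was present in 6 of 23, or 26.1%, against 5.51% of 32851 promoters and 11.1% of tested genes in the table. Of these 6 genes Mdc1 and Fancg were higher in KD, while Brca2, Brip1, Chek2 and Bard1 were not called. The element therefore occurred in promoters of both kinds. Fanca, Msh6 and Neil3, also higher in KD, lacked it. H2afx and Rad54b, higher as well, had no promoter entry and were not searched. In the windows of 60 bases that follow, written 5′ to 3′ on the gene's strand, capitals mark the heptamer or its reverse complement.
Mdc1, chr17:35841438-35841497, plus strand: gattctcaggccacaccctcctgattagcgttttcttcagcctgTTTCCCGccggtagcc
Brca2, chr5:150522427-150522486, plus strand: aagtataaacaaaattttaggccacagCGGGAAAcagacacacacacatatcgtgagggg
Chek2, chr5:110839805-110839864, plus strand: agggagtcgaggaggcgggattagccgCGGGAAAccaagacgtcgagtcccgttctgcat
Bard1, chr1:71103149-71103208, minus strand: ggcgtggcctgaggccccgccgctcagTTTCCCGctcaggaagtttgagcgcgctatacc

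The pentamer CCAAT was present in 13 of 23 promoters, or 56.5%, against 33.8% of all promoters and 41.4% of tested genes. It occurred in promoters of genes that rose, such as Fanca and Msh6, and of those that fell, Atm and Rad51ap1. In the next windows capitals mark CCAAT or its reverse complement, and Fanca carries it at 2 positions.
Fanca, chr8:123318577-123318636, minus strand: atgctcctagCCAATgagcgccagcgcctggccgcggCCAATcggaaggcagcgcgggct
Msh6, chr17:87974989-87975048, plus strand: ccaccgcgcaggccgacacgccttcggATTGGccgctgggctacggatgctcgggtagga
Atm, chr9:53536804-53536863, minus strand: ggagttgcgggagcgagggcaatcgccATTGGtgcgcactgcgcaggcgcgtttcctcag
Rad51ap1, chr6:126939591-126939650, minus strand: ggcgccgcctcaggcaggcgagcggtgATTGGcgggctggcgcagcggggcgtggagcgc

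A CHR-type hexamer (TTTGAA or TTCGAA), the kind of element bound by the complex that times mitotic genes, was present in 3 of 23, or 13.0%, against 17.1% of all promoters and 14.8% of tested genes. They were Neil3, which rose in KD, and Atr and Bard1, which were not called with all libraries and were lower without KD1. Capitals mark the match in Neil3.
Neil3, chr8:53639235-53639294, minus strand: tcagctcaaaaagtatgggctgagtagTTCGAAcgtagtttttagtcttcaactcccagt

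Among checkpoint genes, the histone variant that marks breaks and the mediator that binds it rose. Atm, the gene of a kinase that phosphorylates H2AX, was lower, a call that held under 14 of 21 alternatives. Of the 8 genes 2 rose, 1 fell and 5 did not pass, with a median log2 difference of 0.04. That was 25% higher and 12.5% lower, against 10.9% and 13.6% of all tested genes. H2afx encodes H2AX, the histone that is phosphorylated around double-strand breaks. It had 48.7, 45.1 and 45.3 FPKM in NC1, NC2 and NC3, and 61.3, 78.7 and 84.5 FPKM in KD1, KD2 and KD3. The groups did not overlap, and KD1 was the lowest KD library. The mean went from 46.4 ± 2.04 to 74.8 ± 12.1 FPKM (SD, n = 3), a log2 difference of 0.67 (SE 0.12, limma adjusted p = 0.00944). Without KD1 it was 0.80 (limma adjusted p = 0.000328).

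Mdc1 encodes the mediator that reads phosphorylated H2AX and holds repair factors at the break. It had 18.2, 17.9 and 17.3 FPKM in the NC libraries and 23.4, 24.2 and 23.2 FPKM in the KD libraries. The groups were well separated and KD1 lay between the other KD libraries. The log2 difference was 0.39 (SE 0.05, limma adjusted p = 0.00325), and 0.23 (limma adjusted p = 0.0278) after the median difference of each chromosome was removed. H2afx lies on chromosome 9 at 44334694 to 44336077 and Mdc1 on chromosome 17 at 35841515 to 35859670 (mm10, as deposited).

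Atm encodes the kinase activated by double-strand breaks. It had 13.6, 14.7 and 13.3 FPKM in NC and 12.0, 10.5 and 9.56 FPKM in KD, again without overlap. The log2 difference was -0.35 (SE 0.09, limma adjusted p = 0.0331), and -0.43 (limma adjusted p = 0.00467) without KD1. Leaving out NC1, NC2, NC3, KD2 or KD3 instead ended the call, with limma adjusted p of 0.0682 to 0.122, as did equal totals (0.0516) and no filter (0.0730). Atr, which encodes the kinase of stalled forks, had 4.27, 4.53 and 4.15 FPKM in NC and 4.68, 3.53 and 3.32 FPKM in KD. KD1 was above all NC libraries and the other KD libraries below them. The log2 difference of Atr was -0.14 (95% interval -0.42 to 0.13, limma adjusted p = 0.392) with all libraries and -0.26 (limma adjusted p = 0.0236) without KD1.

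The effector kinases and the fork protection pair did not pass in any setting. Chek1, the effector of ATR, had 14.0 ± 0.43 FPKM in NC and 14.2 ± 1.53 FPKM in KD (n = 3, SD), a log2 difference of 0.01 (95% interval -0.18 to 0.21). Chek2, the effector of ATM, had 9.37 ± 0.42 and 9.83 ± 0.80 FPKM, a log2 difference of 0.06 (95% interval -0.11 to 0.23). Timeless and Tipin encode partners that travel with the replication fork. Timeless had 10.6 ± 0.15 and 9.93 ± 0.77 FPKM, with an interval of -0.24 to 0.08 for the log2 difference. Tipin, the second most abundant of the 30 after H2afx, had 31.9 ± 1.72 and 35.7 ± 3.89 FPKM, with an interval of -0.06 to 0.37.

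Among the 4 genes of base repair, mismatch repair and replicative polymerases, Msh6 and Neil3 rose and the polymerase genes Pold1 and Pole did not pass. The share was 50% higher and 0% lower, against 10.9% and 13.6% of all tested genes, in a list of 4. All 4 log2 differences were positive, with a median of 0.40. Msh6 encodes a protein that recognises mismatched bases after replication. It had 21.10, 20.04 and 21.37 FPKM in NC and 29.51, 30.47 and 31.02 FPKM in KD. All KD libraries were well above all NC libraries and close to each other. The mean rose from 20.8 ± 0.70 to 30.3 ± 0.76 FPKM (SD, n = 3), 1.46-fold, with a log2 difference of 0.52 (SE 0.05, limma adjusted p = 0.00122). Msh6 lies on chromosome 17 at 87975050 to 87990883, and 25 bases of it overlap Fbxo11 on the other strand, which had 16.3 FPKM in NC and 20.3 in KD (limma adjusted p = 0.110).

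Neil3 encodes a DNA glycosylase that removes oxidised bases and acts on crosslinks at replication forks. It had 6.970, 7.045 and 6.996 FPKM in NC and 14.0, 11.2 and 10.9 FPKM in KD. KD1 was the highest library here, and the KD values stayed well above NC without it. The mean was 7.004 ± 0.038 in NC and 12.0 ± 1.72 in KD (SD, n = 3), 1.72-fold, with a log2 difference of 0.69 (SE 0.10, limma adjusted p = 0.00386). Without KD1 it was 0.59 (limma adjusted p = 0.00046). Neil3 is on chromosome 8 at 53586867 to 53639065.

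Pold1 and Pole encode the catalytic subunits of the polymerases that copy the lagging and the leading strand. Pold1 had 22.8, 22.7 and 22.3 FPKM in NC and 23.5, 30.02 and 30.28 FPKM in KD. KD1 was close to NC while KD2 and KD3 were above it. The log2 difference was 0.28 (95% interval 0.05 to 0.52, limma adjusted p = 0.0839), and 0.40 (limma adjusted p = 0.000791) without KD1. Pole had 11.7 ± 0.43 and 13.0 ± 0.73 FPKM (SD, n = 3), a log2 difference of 0.14 (95% interval -0.01 to 0.29, limma adjusted p = 0.156).

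In the Fanconi anaemia pathway, the 2 genes that rose both encode members of the core complex, and the other 5 did not pass. That was 28.6% higher and 0% lower, against 10.9% and 13.6% of all tested genes. The 7 genes had a median log2 difference of 0.19, and 0.08 without KD1. Fanca had 6.83, 6.56 and 6.51 FPKM in NC and 9.54, 10.2 and 9.35 FPKM in KD. The groups were clearly apart, with a log2 difference of 0.48 (SE 0.06, limma adjusted p = 0.00227). Fancg, whose protein binds FANCA directly, had 3.76, 3.38 and 4.14 FPKM in NC and 4.83, 5.25 and 5.23 FPKM in KD. It also did not overlap between groups, with a log2 difference of 0.36 (SE 0.08, limma adjusted p = 0.0212). That call ended without NC1, NC2, KD2 or KD3 (limma adjusted p of 0.0570 to 0.0835), with no filter (0.0548) and with array weights (0.0522). Fanca is on chromosome 8 at 123268300 to 123318576 and overlaps Zfp276 of the other strand over 1446 bases, and Fancg is on chromosome 4 at 43002343 to 43010506. Zfp276 had 3.12 FPKM in NC and 3.98 in KD (limma adjusted p = 0.114).

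The other core genes were higher on average without passing. Fancc, the lowest of the 30, had 1.90, 1.68 and 1.66 FPKM in NC and 2.11, 2.46 and 2.28 FPKM in KD. The groups did not overlap, and the log2 difference was 0.26 (95% interval 0.04 to 0.48, limma adjusted p = 0.0815). It passed without KD1 (limma adjusted p = 0.0461). Fancb had 10.8 ± 0.53 and 12.5 ± 1.86 FPKM (SD, n = 3), with KD1 at 14.6 and KD3 at 11.0. Fancd2, whose ubiquitination activates the pathway, had 6.63 ± 0.12 and 5.95 ± 0.70 FPKM, a log2 difference of -0.14 (limma adjusted p = 0.275). Without KD1 Fancd2 was lower (-0.21, limma adjusted p = 0.0400). Fanci had 8.96 ± 0.61 and 8.53 ± 0.41 FPKM, with an interval of -0.23 to 0.10 for the log2 difference. Brip1, a helicase gene that links the pathway to BRCA1, had 5.71 ± 0.12 and 6.34 ± 0.81 FPKM (limma adjusted p = 0.356).

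Of 11 homologous recombination genes 1 rose, 1 fell and 9 did not pass. That was 9.09% in each direction, not above the 10.9% and 13.6% of all tested genes. The median log2 difference was 0.08, and 0.02 without KD1. Rad54b, a helicase-like translocase gene that aids strand exchange, had 5.48, 5.45 and 5.02 FPKM in NC and 7.61, 6.88 and 6.18 FPKM in KD. The groups did not overlap, and the log2 difference was 0.32 (SE 0.08, limma adjusted p = 0.0354). The call ended without NC1, NC2, NC3 or KD2 (limma adjusted p of 0.0924 to 0.122), with no filter (0.0804), with array weights (0.0898) and with chromosome medians removed (0.0648). Rad54b, on chromosome 4 at 11558922 to 11615805, shares its span with Fsbp on the same strand and Gm11832 on the other. Gm11832 had 6.06 FPKM in NC and 8.24 in KD (limma adjusted p = 0.0972), and the strand setting of the counting is not given. Its relative Rad54l had 6.72 ± 0.26 and 6.82 ± 0.26 FPKM (SD, n = 3), with an interval of -0.12 to 0.16.

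Rad51ap1 encodes a DNA-binding protein that promotes strand invasion. It had 8.83, 9.53 and 8.17 FPKM in NC and 6.94, 6.99 and 6.84 FPKM in KD. The KD libraries were nearly equal and all below NC, with a log2 difference of -0.31 (SE 0.07, limma adjusted p = 0.0191). The gene is on chromosome 6 at 126923050 to 126939587, and the median log2 difference of the 598 tested genes of chromosome 6 was -0.22, the lowest of any chromosome. With chromosome medians removed the difference of Rad51ap1 was -0.09 (limma adjusted p = 0.402). The call also ended without NC1, NC2 or KD2 (limma adjusted p of 0.0690 to 0.0802). Chromosomes 8 and 17, which hold Fanca, Neil3, Mdc1 and Msh6, had the highest medians at 0.17 each. With chromosome medians removed these 4 genes kept their calls, with differences of 0.33, 0.54, 0.23 and 0.36.

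None of the tumour suppressor genes of the pathway was called, though Brca2 and Palb2 did not overlap between the groups. Brca2, whose protein acts at resected DNA ends, had 8.37, 8.88 and 7.84 FPKM in NC and 12.0, 10.6 and 9.45 FPKM in KD. All KD libraries were above all NC libraries, yet the log2 difference of 0.32 (SE 0.09) just missed the threshold (limma adjusted p = 0.0507). It passed under 7 of 21 alternatives, among them the fits without KD1 (limma adjusted p = 0.0459) and without KD3 (0.0260). Palb2, which joins BRCA2 to BRCA1, had 2.55 ± 0.20 and 3.11 ± 0.16 FPKM (SD, n = 3), with no overlap and a limma adjusted p of 0.103. Brca1 had 12.2 ± 0.44 and 12.6 ± 1.08 FPKM, a log2 difference of 0.04 (95% interval -0.13 to 0.22). Its partner Bard1 had 8.17 ± 0.29 and 7.43 ± 0.51 FPKM, a log2 difference of -0.12 (limma adjusted p = 0.225) and was lower without KD1 (-0.17, limma adjusted p = 0.0373). A pseudogene inside Bard1 on its strand, Gm16236, had 1.93 FPKM in NC and 0.615 in KD, and the counting could divide reads between them.

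The remaining recombination genes did not pass in any setting. Blm, a helicase gene that limits crossovers, had 7.56 ± 0.39 and 8.08 ± 0.81 FPKM (SD, n = 3). Exo1, the exonuclease gene of end resection, had 5.93 ± 0.09 and 5.86 ± 0.11 FPKM with a 95% interval of -0.15 to 0.12 for the log2 difference. The recombination genes Xrcc2 and Xrcc3 had 7.92 ± 0.56 and 8.45 ± 0.80 FPKM, and 6.16 ± 0.32 and 6.93 ± 1.02 FPKM, in the same order. Xrcc3 and Klc1, which lies on the other strand, overlap over 4653 bases.

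**Figure D2:**
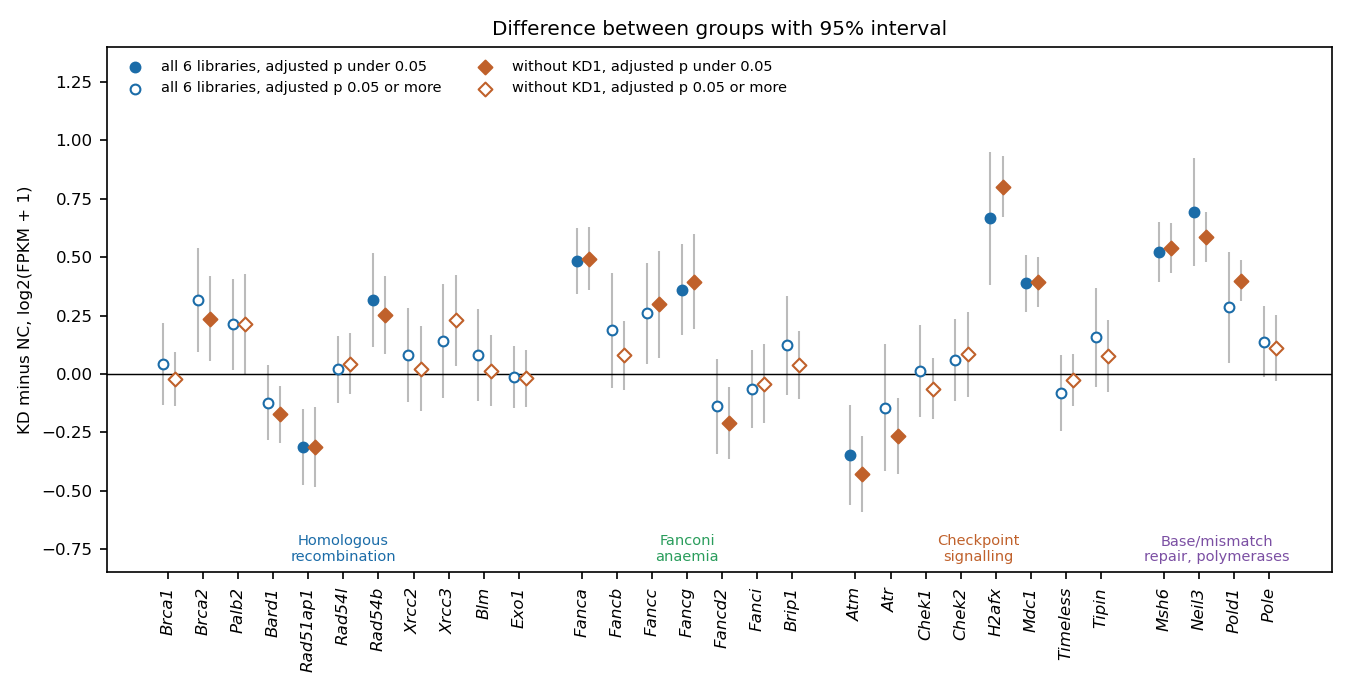
KD minus NC difference on the log2(FPKM + 1) scale with its 95% interval for each gene, with all 6 libraries (circles) and without KD1 (diamonds), filled where the limma adjusted p is under 0.05. With all libraries 9 symbols are filled, and without KD1 15 are, with the added calls at Brca2, Bard1, Fancc, Fancd2, Atr and Pold1.

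The position of KD1 followed the base composition of the genes. KD1 lay above KD2 and KD3 for 15 of the 30 genes, below both for 9 and between them for 6. Its log2 deviation from the mean of KD2 and KD3 was highest for Atr (0.36, with 37.3% GC in its transcripts) and lowest for H2afx (-0.41, with 62.3% GC). Across the 30 genes, which share the same libraries and are not independent, the deviation had Spearman's rho of -0.84 and Pearson's r of -0.89 with GC content. Over 12282 tested genes rho was -0.65. The deviation of each library from the mean of all 6 was also set against GC content. Its rho was -0.41 in KD1, 0.34 in KD2 and 0.49 in KD3, and -0.17, -0.24 and -0.04 in NC1, NC2 and NC3. The fits without KD1 thus rest on KD2 and KD3, whose rho had the opposite sign to the NC libraries. The KD minus NC difference itself had a rho of 0.45 with GC content across the 30 genes, and 0.59 without KD1. Reads from mitochondrial genes made up 2.56% of KD1 and 1.60% to 1.97% of the other libraries, and the part of either in these differences was not tested. With a GC and length trend removed from each library, 14 genes were higher and 2 lower, or 46.7% and 6.67%, against a background of 19.5% higher and 17.7% lower. The added rises were Brca2, Palb2, Fancb, Fancc, Brip1, Pold1 and Pole, so all 4 genes of base repair, mismatch repair and replicative polymerases and 5 of 7 Fanconi genes were then higher. H2afx moved from 0.67 to 0.52 and Neil3 from 0.69 to 0.78 under that setting. A rise of this size was not particular to the 30 genes, as 12 of 22 mitosis genes, or 54.5%, were higher under it.

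**Figure D3:**
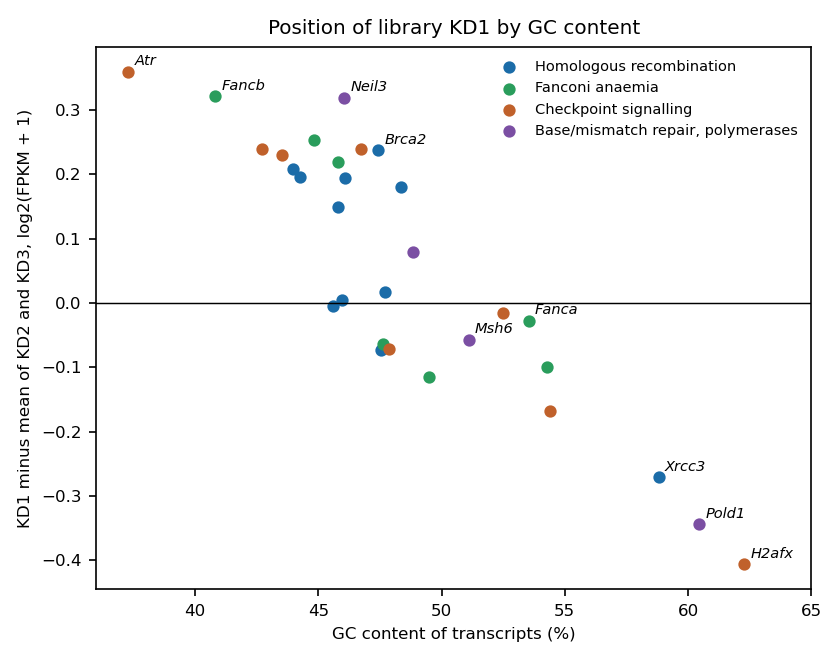
Log2(FPKM + 1) in KD1 minus the mean of KD2 and KD3 against GC content of transcripts (%), with 1 point per gene coloured by role. Points fall from Atr at 0.36 to H2afx at -0.41, with a rho of -0.84 over 30 genes.

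Genes whose products work together did not all keep their proportions. These ratios were chosen after the values were seen, carry no test, and show unequal change only. The FPKM ratio of H2afx to Atm went from 3.35 ± 0.27 in NC to 7.13 ± 1.90 in KD (SD, n = 3), and that of Mdc1 to Atm from 1.29 ± 0.067 to 2.22 ± 0.25. H2afx and Atm differ in GC content, at 62.3% and 42.7%, and no GC trend was removed from the ratios. Chek2 to Atm went from 0.68 ± 0.057 to 0.93 ± 0.12 and Chek1 to Atr from 3.25 ± 0.049 to 3.73 ± 0.30, both without overlap. The ratio of Fanca to Fancd2, core complex over substrate, was 1.001 ± 0.017 in NC and 1.64 ± 0.18 in KD, without overlap. With chromosome medians removed, the log2 difference was 0.33 for Fanca and 0.085 for Fancd2, against 0.48 and -0.14 without that removal. Within the core complex, by contrast, Fanca to Fancg was 1.78 ± 0.19 and 1.90 ± 0.10, with overlapping libraries. Fanci to Fancd2 also overlapped, at 1.35 ± 0.089 and 1.45 ± 0.18. Brca1 to Bard1 went from 1.49 ± 0.022 to 1.69 ± 0.028, a narrow spread in which all 3 KD libraries exceeded all 3 NC libraries. The log2 differences of Brca1 and Bard1 were 0.04 and -0.12, and -0.0030 and 0.044 with chromosome medians removed.

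**Figure D4:**
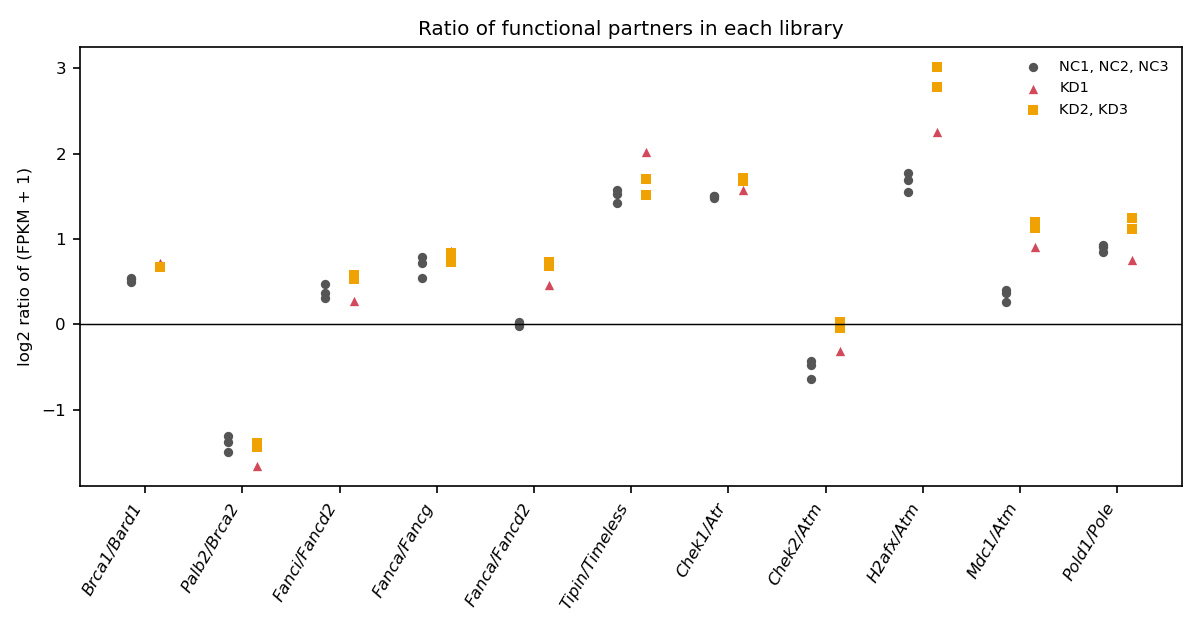
Log2 ratio of (FPKM + 1) between 11 pairs of functionally linked genes in each library, with NC as circles, KD1 as a triangle and KD2 and KD3 as squares. The KD symbols lie above all NC symbols for H2afx, Mdc1 and Chek2 to Atm, Chek1 to Atr, Fanca to Fancd2 and Brca1 to Bard1. They overlap NC for Fanca to Fancg, Fanci to Fancd2, Palb2 to Brca2, Tipin to Timeless and Pold1 to Pole. Neither chromosome medians nor the trend with GC and length were removed from these ratios.

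The rest of the repair machinery is given for comparison, and its difference from the 30 genes was not tested. Of 141 tested genes in 8 other repair lists 7 were higher and 11 lower, or 4.96% and 7.80%, both below the background of 10.9% and 13.6%, with a median log2 difference of 0.01. After removal of the trend with GC and length, 29 of them rose and 15 fell, or 20.6% and 10.6%, against 19.5% and 17.7% of all tested genes. In the other homologous recombination genes 1 of 31 rose, the AAA ATPase gene Fignl1, from 29.2 to 36.6 FPKM (limma adjusted p = 0.0474). In the other Fanconi genes 1 of 17 rose, the core complex gene Faap100, from 3.42 to 4.63 FPKM (limma adjusted p = 0.0466). Base excision repair had 0 calls by limma among 20 genes, with 2 higher and 2 lower at an unadjusted p under 0.05, and voom called 1 lower, Apex2, at 2.46 FPKM in NC and 1.93 in KD (named after its values were seen). Without KD1, 6 of these 20 genes were higher, or 30%, against a background of 20.9%, and with the GC and length trend removed 2 were.

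Of 18 nucleotide excision repair genes 2 fell and 16 did not pass. Ercc6, which encodes the transcription-coupled repair factor CSB, fell from 4.33 to 2.87 FPKM (log2 difference -0.46, limma adjusted p = 0.0044). The TFIIH subunit gene Gtf2h1 fell from 57.0 to 42.8 FPKM (log2 difference -0.40, limma adjusted p = 0.0049). Both held under every alternative in which they were tested, Ercc6 at -0.27 with chromosome medians removed. Of 11 end-joining genes Polm was higher (6.55 to 8.34 FPKM, limma adjusted p = 0.0405) and Shld2, of the shieldin complex, lower (1.64 to 1.05 FPKM, limma adjusted p = 0.0473). Of 21 other checkpoint genes 2 rose and 3 fell. The ubiquitin ligase gene Rnf8, which acts directly after MDC1, rose from 2.31 to 3.32 FPKM (limma adjusted p = 0.0273). The phosphatase genes Cdc25b and Cdc25a went in opposite directions, from 34.5 to 42.7 FPKM (limma adjusted p = 0.0102) and from 6.22 to 5.07 FPKM (limma adjusted p = 0.0296), Cdc25a being named after its values were seen. Rad1, a subunit gene of a checkpoint sliding clamp, fell from 5.82 to 4.50 FPKM (limma adjusted p = 0.0191), and Wdhd1 fell from 12.4 to 9.82 FPKM (limma adjusted p = 0.0257). The calls of Fignl1 and Faap100 held under 13 of 21 and 11 of 20 alternatives, and those of Polm and Shld2 under 14 of 21 and 8 of 20. Those of the checkpoint genes Rnf8, Wdhd1, Rad1, Cdc25a and Cdc25b held under 11 of 20, 14 of 21, 15 of 21, 14 of 21 and 20 of 21, in that order. With the replicate block neither Polm nor Shld2 passed. Without KD1, 28 of the 141 genes were higher and 26 lower, or 19.9% and 18.4%, against 20.9% and 21.5% of all tested genes.

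Markers of cycling were measured beside these genes, and their part in the result was not tested. Of 22 mitosis genes 4 rose (18.2%, against 10.9% of all tested genes) and 18 did not pass. Their median log2 difference was 0.15, with summed levels of 1006 to 1025 FPKM in NC and 1105 to 1190 FPKM in KD. Of 27 S-phase genes 2 rose and 4 fell, or 7.41% and 14.8%, near the 10.9% and 13.6% of all tested genes, with a median of 0.07 and sums of 1105 to 1119 FPKM in NC and 1076 to 1150 FPKM in KD. Mki67, a marker of cycling cells, had 103.6 to 107.0 FPKM in NC and 130.6 to 153.6 FPKM in KD (limma adjusted p = 0.00754). Without KD1, 10 mitosis genes rose and 1 fell, or 45.5% and 4.55%, against 20.9% and 21.5% of all tested genes. In the same fit 6 S-phase genes rose and 6 fell, or 22.2% each, near that background. With the GC and length trend removed, 12 mitosis genes rose and 0 fell, or 54.5% and 0%, against 19.5% and 17.7% of all tested genes. Under that setting 5 S-phase genes rose and 3 fell, or 18.5% and 11.1%.

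**Figure D5:**
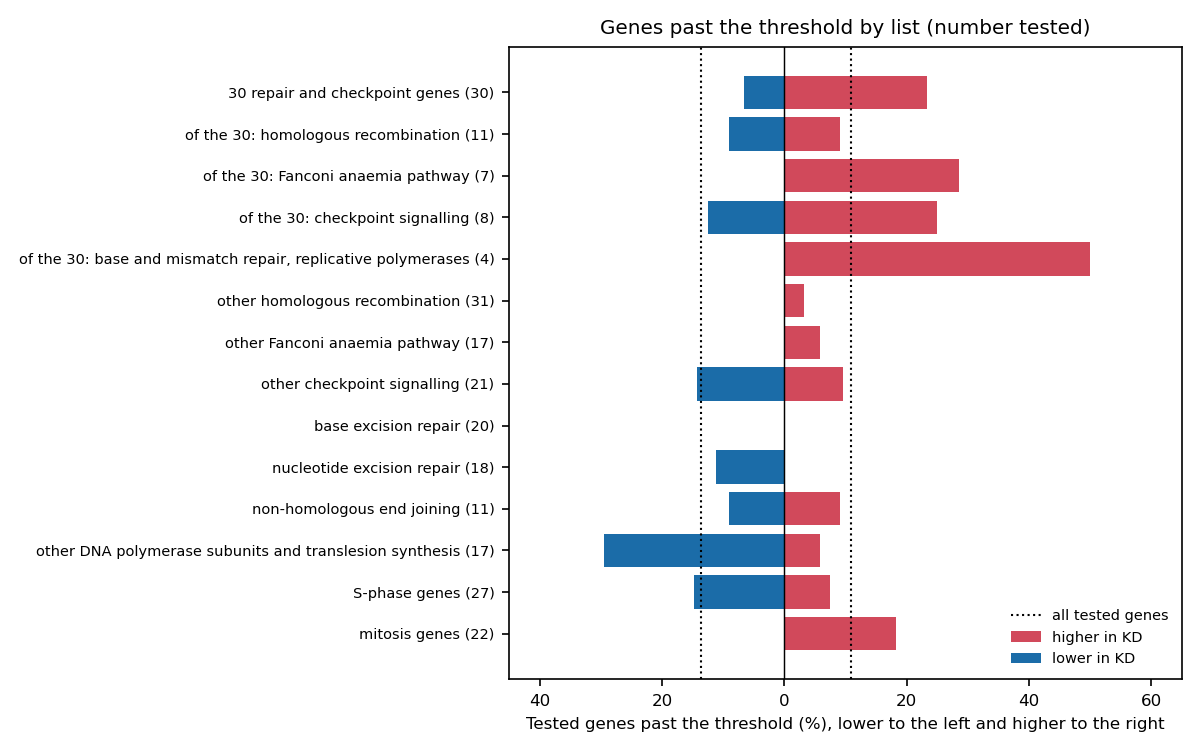
Percent of tested genes past the limma threshold in each list, higher in KD to the right and lower to the left, with dotted lines at the shares over all tested genes (10.9% and 13.6%). The 30 genes reach 23.3% to the right, and 7 of the 8 other repair lists are drawn beside them.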

How the data were processed

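FPKM of 54532 genes in 6 libraries, as deposited by the authors, came with gene positions and lengths, per the file headers. Paired-end reads were aligned with HISAT2 2.0.5 per the labels' protocols, to mm10 per the submitters' processing notes. No source used here gives the counting tool, whether it used strand, or the annotation. FPKM times gene length was a whole multiple of 1 step for 100% of values (tolerance 0.01), which gave reads per gene and the depth.

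Groups came from the titles. Genes averaging 1 FPKM or more over the 6 libraries entered 1 model of log2(FPKM + 1), fitted with limma 3.58.1 (R 4.3.3) with its variance moderated along expression level. The p-values were adjusted over all tested genes by Benjamini-Hochberg, with a threshold of 0.05. Fold changes on that scale understate the change of low genes. All 30 genes are named, and from other repair lists up to 2 called genes per direction with the largest difference. The genes and lists were chosen with earlier results of these data known, and results of some genes are not reported here. GC content was the mean over GENCODE M21 transcripts, available for 99.9% of tested genes. In data simulated for KD against NC with 12299 genes, limma called 76.1% of genes changed 1.5-fold, 89.6% changed 2-fold and 0.0661% of unchanged genes.

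Alternatives changed the pseudocount (0.1 or 5), the filter (none, or 5 FPKM) or the scaling (median of ratios, quantiles, equal totals). Others dropped the trend, moderated robustly, added a block, weighted libraries, ran voom on the reads, or kept protein-coding genes. Chromosome medians, or a spline trend on GC and length (5 degrees of freedom), were removed, and each library was left out. Tables used Python 3.11.15 and pandas 2.3.3.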

Additional observations from a re-analysis of the deposited data

How the results depend on the processing

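Over all genes 1344 were higher and 1672 lower. The fits that left out a library gave 590 to 2572 higher and 923 to 2648 lower, and removal of the GC and length trend gave 2393 higher. Of the 30 repair and checkpoint genes, those fits gave 5 to 10 higher and 0 to 5 lower. By role they gave 0 to 2 higher and 0 to 2 lower for homologous recombination, 1 to 3 and 0 to 1 for the Fanconi pathway, 2 to 2 and 0 to 2 for checkpoint signalling, and 2 to 3 and 0 to 0 for base and mismatch repair with polymerases. Lower genes numbered 1 with no filter, equal totals or chromosome medians removed. With the GC and length trend removed, 14 were higher: 3 in recombination, 5 Fanconi genes and all 4 of base repair, mismatch repair and polymerases. Recombination genes higher numbered 0 with no filter, array weights or chromosome medians removed, and 2 with the 5 FPKM filter, equal totals, voom or protein-coding genes only. Recombination genes lower were 0 with chromosome medians removed. Fanconi genes higher numbered 1 with no filter, the 5 FPKM filter or array weights. Checkpoint genes lower were 0 with no filter or equal totals. The 5 FPKM filter left 26 of the 30 genes.

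The sign of 9 genes that were not called changed in 18 fits, none of them past the threshold. With chromosome medians removed the log2 difference was -0.0030 for Brca1, 0.044 for Bard1, -0.013 for Rad54l, 0.15 for Exo1, 0.085 for Fancd2, -0.032 for Chek1 and 0.12 for Timeless. With the GC and length trend removed it was 0.050 for Exo1 and 0.00996 for Fanci, and with equal totals 0.011 for Exo1. With array weights it was -0.058 for Chek1 and -0.0074 for Chek2. Over the fits that left out 1 library it ran from -0.022 to 0.079 for Brca1, -0.0046 to 0.044 for Rad54l, -0.063 to 0.080 for Chek1 and -0.00016 to 0.096 for Chek2. The cause of these changes was not tested.

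Same-numbered NC and KD libraries had correlations of deviations of 0.079, -0.043 and 0.154, and KD1 correlated best with NC2, so the numbers were not taken as pairs. The replicate block gave 7 higher and 2 lower of the 30 genes, with 1050 and 1383 over all genes. A quasi-likelihood count test on recovered reads, planned as an alternative, was not run. With 3 libraries per group, the simulated recovery shows that changes of 1.5-fold and of 2-fold can be missed. The simulated counts had the same dispersion for every gene and no library like KD1, so recovery in these data may be lower.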

Other observations

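Of 17 tested genes of other DNA polymerase subunits and translesion synthesis 1 rose and 5 fell, with a median log2 difference of -0.19. That was 5.88% higher and 29.4% lower, against a background of 10.9% higher and 13.6% lower. The gene that rose, Polh, encodes the translesion polymerase that copies past ultraviolet damage, and it had 10.6, 10.8 and 10.8 FPKM in NC and 14.2, 15.8 and 14.6 FPKM in KD (log2 difference 0.43, limma adjusted p = 0.0039). Among the falls, Pole4, an accessory subunit gene of the leading-strand polymerase, had 40.6, 38.8 and 36.3 FPKM in NC and 29.2, 27.0 and 26.0 FPKM in KD (log2 difference -0.48, limma adjusted p = 0.0042). Rev3l, the catalytic subunit gene of a translesion polymerase, had 12.6, 12.9 and 11.3 FPKM in NC and 10.7, 8.54 and 7.39 FPKM in KD (log2 difference -0.44, limma adjusted p = 0.0481), and it passed under 11 of 21 alternatives. The groups did not overlap in any of these 3 genes. With chromosome medians removed the log2 difference was 0.27 for Polh (limma adjusted p = 0.0203), -0.25 for Pole4 (0.0423) and -0.23 for Rev3l (0.254), and 3 genes of the list were lower with a median of -0.08. Without KD1, 5 genes of this list were higher and 10 lower, against 20.9% and 21.5% of all tested genes.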
